A study of Mus musculus with 2 samples.

Results

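Skeletal muscle nuclei at the outside of the mouse eye are described here. They numbered 452 of 16867 kept nuclei, or 2.68% (exact Clopper-Pearson 95% interval 2.44 to 2.93%). A kept nucleus had at least 200 detected genes and under 10% of its UMIs, the counted RNA molecules, from mitochondrial genes. A muscle nucleus also had at least 8 UMIs, and at least 0.5% of its UMIs, summed over 5 genes of the sarcomere and of calcium release: Ttn, Neb, Ryr1, Trdn and Mybpc1. The nuclei were thus chosen by the measured UMIs of these 5 genes, whose levels are given as a description only.

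The study concerns mice heterozygous for the Prph2C213Y allele on a C57BL/6J background, beside wild types of like age and sex, with spatial data at 6 months. The library used here, called T1, has no stated genotype, received no treatment and came from 1 eye with tissue labelled retina. SeekSpace, the method used, reads the RNA of single nuclei and also where each lay on a chip; a second library carries the place codes, and all 17285 barcodes had a place. With 1 library and no groups there is no test and no p-value, and intervals cover counting error only.

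Summed over these barcodes and 32285 features, the matrix held 55843593 UMIs. On the chip the kept nuclei formed 4 separate ring-shaped pieces of tissue, although the labels give a single section. Summed over all kept nuclei, Xist, the RNA of the inactive X chromosome, measured 42.1 CPM in piece 1, 59.9 CPM in piece 2, 38.1 CPM in piece 3 and 884 CPM in piece 4. Uty, a gene of the Y chromosome, measured 94.9, 89.9, 91.8 and 18.9 CPM in the same order. CPM is the UMIs of a gene per 1000000 UMIs, pooled over the nuclei of a set. Piece 4 thus stood apart from the others, against the label of a single eye, and values are given by piece throughout. The pieces are treated as places, not as replicates.

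Skeletal muscle fibres are long cells that hold many nuclei in a shared cytoplasm, so neighbouring nuclei can belong to the same fibre and are not independent. Within a fibre, thick filaments of myosin pull on thin filaments of actin when calcium is released through the ryanodine receptor Ryr1, and the pump Atp2a1 or Atp2a2 returns the calcium to the store. The myosin heavy chain gene that a fibre uses sets much of its speed: Myh7 marks slow fibres, and Myh2, Myh1 and Myh4 mark increasingly fast ones. The extraocular muscles, which turn the eye, are known for using these genes side by side with Myh13, a very fast form found in few other muscles. They also keep into adult life the embryonic and neonatal forms Myh3 and Myh8 and the ancient forms Myh15 and Myh7b.

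The muscle nuclei carried a full contractile profile and lay almost entirely outside the eye wall. Their median depth was 3298 UMIs, with a range of 362 to 63083, and 1188 genes. They held 6.97% of all kept UMIs. Mitochondrial genes took a median of 3.48% of their UMIs against 0.135% in the other kept nuclei, and its part in the results was not tested. Of 90 barcodes set aside for 10% or more mitochondrial UMIs, 78 otherwise met the rule. With those included the share was 3.13% and Myh13 stood at 1990 CPM in place of 1458 CPM.

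An unsupervised clustering placed 432 of the 452 in a single cluster of 463 nuclei led by muscle markers. Of the other 20, 8 lay in an endothelial-like cluster and the rest lay in 7 other named classes, except for 2 in unnamed clusters. The 31 nuclei of the muscle cluster outside the rule had a median of 975 UMIs. Just inside the threshold, 5 nuclei had 8 or 9 UMIs of the rule genes. Just outside it, 17 nuclei had 6 or 7, and 10 of them lay in the muscle cluster. On the share, 14 nuclei lay just inside at 0.5 to 1% and 6 just outside at 0.25 to 0.5%.

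Marker RNA of other cell types was lower in the muscle nuclei than in nuclei of the type itself. The 6 rod markers summed to 557 CPM, with a range of 430 to 672 CPM over the pieces, against 25788 CPM in rod-like nuclei. The 5 endothelial markers summed to 532 CPM, against 7631 CPM in endothelial-like nuclei. In all kept nuclei outside the rule they summed to 515 CPM, so they were not low beside the rest of the tissue. Surface epithelium markers summed to 64.9 CPM in muscle nuclei and 31.4 CPM in those other nuclei. Markers of the remaining named classes were lower in muscle nuclei than in the other kept nuclei. All 6 fibroblast markers had a UMI and summed to 90.4 CPM. In 7 muscle nuclei the summed markers of another class reached 2% of the UMIs, with 4 of these for rods, 2 for bipolar cells and 1 for the lens. A further muscle nucleus of 60001 UMIs clustered with surface epithelium: it held 1266 UMIs of the mucin Muc4 beside 2840 UMIs of Ttn. It is named again where it set a value.

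The giant spring protein gene Ttn gave 61011 CPM (Poisson 95% interval 60763 to 61260). Among the other genes of the rule, Neb, whose product measures the length of the thin filament, gave 5440 CPM. Ryr1, the calcium release channel, gave 2224 CPM. Mybpc1, a myosin binding protein, gave 943 CPM, and Trdn, which anchors the release complex, gave 679 CPM. All of these followed from the rule.

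Genes outside the rule showed the same tissue. The fast calcium pump Atp2a1 gave 11496 CPM (11388 to 11604) and had a UMI in 97.3% of the nuclei. In rod-like nuclei, which do not make this pump, 2.08% had a UMI, at a median depth of 1063 UMIs. After each nucleus was thinned to 500 UMIs the shares were 91.7% and 0.871%. The muscle creatine kinase Ckm, which buffers ATP, gave 2839 CPM, and skeletal actin Acta1 gave 3181 CPM. Fast troponin T, Tnnt3, gave 3729 CPM, and the oxygen store myoglobin, Mb, 1581 CPM.

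Of 9711 genes with at least 20 UMIs in the muscle nuclei, 262 (2.7%) had at least 2 times the CPM of each of the other named classes, counting only classes of 50 or more nuclei and setting any class with under 3 UMIs to 3. This contrast is that of the rule, so nothing further is read from it. The same holds for the lists: a gene was measured only with at least 20 UMIs in the muscle nuclei themselves. The rule genes are also of the sarcomere and of calcium release, themes that the lists cover. High counts and ratios by list thus follow largely from the choice of nuclei and are given as a description only. By list, 15 of 18 measured thick filament genes, 15 of 17 thin filament genes, 13 of 21 titin and Z-disc genes and 11 of 24 genes of calcium handling met that fold. The median ratio over all genes tested was 0.209, and that of the fast programme list was 64.4, with 12 of 12 past the fold. In the dystrophin complex, which ties the fibre to its surroundings, 1 of 16 did. Dmd itself gave 1750 CPM in muscle nuclei and 4271 CPM in rod-like nuclei, which use a short form of it.

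Outside the fixed lists, 15 genes were named by the size of the same ratio. Agbl1, a carboxypeptidase gene, gave 897 CPM with UMIs in 58.6% of nuclei. Mylk4, a myosin light chain kinase, gave 713 CPM, and Txlnb, a taxilin made in muscle, 528 CPM. The non-coding RNA Nctc1, transcribed near Igf2, gave 468 CPM. Cmya5 (1486 CPM), Ky (539 CPM), Ankrd23 (319 CPM), Myo18b (266 CPM), Alpk3 (257 CPM) and Klhl31 (233 CPM) encode proteins of muscle fibres. The other genes so chosen were Atcayos, Perm1, Sypl2, 5430431A17Rik and Myh15, with 203 to 356 CPM.

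Genes that mark where in the body a muscle arose were unevenly present. Tbx15 gave 638 CPM in muscle and 299 CPM in fibroblast-like nuclei, and Alx4 gave 148 and 138 CPM. Pax3 and the trunk and limb genes Hoxa9, Hoxa11, Hoxc9 and Hoxc10 had 0 UMIs over the 3804865 UMIs of muscle nuclei, as did Tcf21. Lbx1, used by muscle precursors that migrate into limbs, had 3 UMIs, and Msc had 1.

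Among myosin heavy chain genes, Myh4 and Myh1 led, and Myh13 was present at a level near that of Myh2. Myh4 gave 6012 CPM, Myh1 3956, Myh2 1616 and Myh13 1458 CPM (1420 to 1496). Myh3 gave 657, Myh15 356, Myh7 222 and Myh8 216 CPM. Myh7b gave 14.2 CPM, and the heart gene Myh6 had 4 UMIs. Myh7b was higher in lens-like (64.3 CPM) and bipolar-like nuclei (37.1 CPM) and lower in the other named classes. Per kilobase of gene span, a scale that sets genes of unlike length side by side, Myh4 gave 266 CPM, Myh1 162, Myh2 61.0, Myh13 32.8 and Myh3 27.3 CPM. The order of these 5 genes was the same on both scales. That of the lower genes was not: Myh15, with a span of 142 kilobases, gave 2.51 CPM per kilobase. This was below Myh7 at 9.25 and Myh8 at 6.86 CPM.

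Myh13 was the marker that the rule did not use. It had a UMI in 144 muscle nuclei, or 31.9% (27.6 to 36.4%), against 13 of 5725 rod-like nuclei, or 0.227% (0.121 to 0.388%). Thinned to 500 UMIs, the shares were 20.2% of 435 nuclei and 0.145% of 5511. Among the other named classes the highest CPM was that of endothelial-like nuclei, with 11.7 CPM (6.06 to 20.5) from 12 UMIs. With nuclei weighted equally in place of pooled UMIs, Myh13 stood at 1163 CPM.

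Each muscle nucleus with at least 3 UMIs over 9 myosin heavy chain genes was placed under the gene that held at least 60% of them, or called mixed. Such a class is a range along a scale, not a fibre type. Of 413 nuclei, 157 were Myh4-led (38.0%, 33.3 to 42.9%), 96 Myh1-led (23.2%, 19.3 to 27.6%), 43 Myh2-led (10.4%, 7.64 to 13.8%) and 86 mixed (20.8%). Smaller sets were led by Myh7 (11 nuclei), Myh3 (10), Myh13 (8) and Myh8 (2). Leading shares of 55 to 65%, near the limit, occurred in 58 nuclei, and 39 nuclei had too few UMIs. With a limit of 80% the Myh4-led share was 32.9%.

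**Figure D1:**
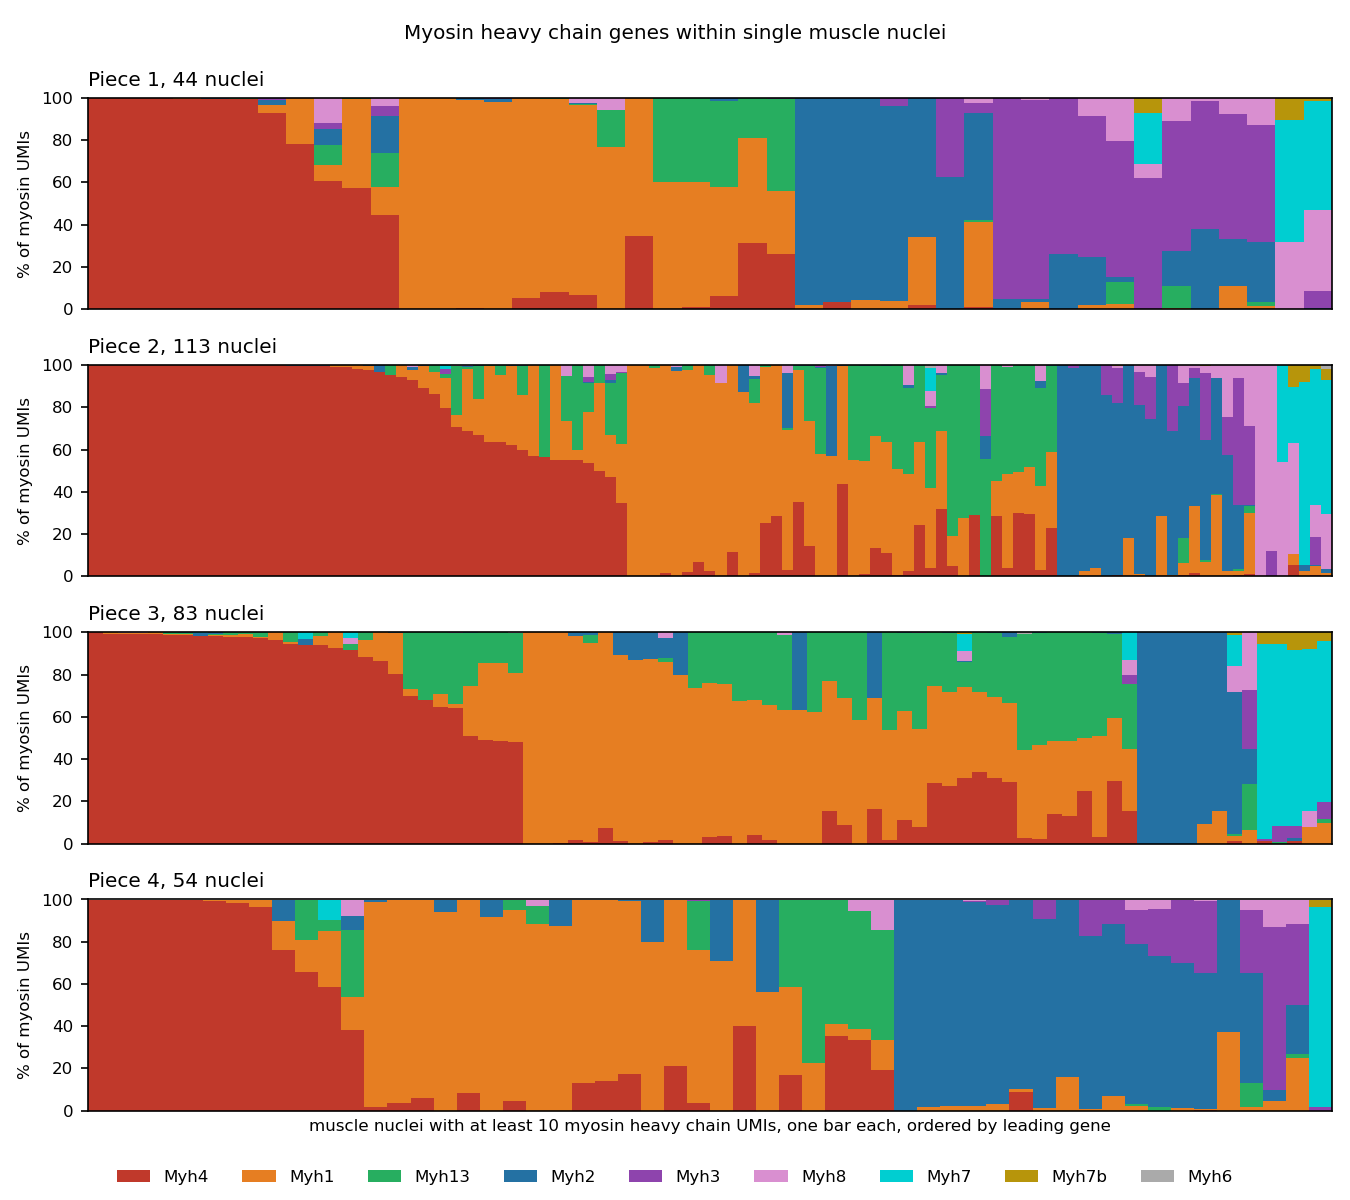
Share (%) of myosin heavy chain UMIs held by each of 9 genes in single muscle nuclei with at least 10 such UMIs, in 4 rows for pieces 1 to 4. Each bar is 1 nucleus, ordered by its leading gene. Myh13 appears chiefly above Myh1 and Myh4, and Myh3 chiefly above Myh2.

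Single nuclei often held more than 1 of these genes. Among 294 nuclei with at least 10 myosin UMIs, 208 (70.7%) had at least 3 UMIs of each of 2 or more genes. Myh13 reached 3 UMIs in 112 nuclei, of which 94 also had 3 UMIs of Myh1 and 80 of Myh4, but 14 of Myh2. Of the 86 mixed nuclei, 63 had Myh13 at 3 UMIs. Myh13 thus led few nuclei and mostly accompanied the fast forms, as the bars of single nuclei show.

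Myh3 and Myh15 were found most often with Myh2. Myh3, the embryonic form, reached 3 UMIs in 45 nuclei, of which 34 had Myh2, 22 had Myh1, 12 had Myh13 and 3 had Myh4. Myh15, examined after its level had been seen, reached 3 UMIs in 30 nuclei, of which 26 had Myh2, 25 had Myh3, 11 had Myh1, 5 had Myh13 and 0 had Myh4. Myh8, the neonatal form, reached it in 49 nuclei and was found beside Myh1 in 33, Myh2 in 27, Myh3 in 26 and Myh13 in 26. Nuclei with more UMIs pass this limit more easily, and the median depth was 2164 UMIs in Myh4-led, 3122 in Myh1-led, 8118 in Myh2-led and 9453 in mixed nuclei.

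Myh7b reached 3 UMIs in 8 nuclei, and all 8 also had 3 UMIs of Myh7. Both genes carry a microRNA in an intron, and so does Myh6. These microRNAs, known as regulators of myosin choice, were not measured here. Their mature sequences are shown because Myh7 and Myh7b appeared together, while Myh6 reached 3 UMIs in 0 nuclei. The sequences were taken from RefSeq (build GRCm38.p6), with the seed (bases 2 to 8) in capitals.
miR-208b-3p, in Myh7: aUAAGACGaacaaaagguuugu
miR-499-5p, in Myh7b: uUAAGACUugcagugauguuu
miR-208a-3p, in Myh6: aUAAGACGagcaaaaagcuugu
The first lies at chr14:54975710-54975731 on the minus strand, within the span of Myh7. The second lies at chr2:155622893-155622913 on the plus strand, within Myh7b, and the third at chr14:54949072-54949093 on the minus strand, within Myh6. The seeds of miR-208b-3p and miR-208a-3p were the same in 7 of 7 bases, and that of miR-499-5p shared 6 of them. Of the hosts, Myh7 had 843 UMIs, Myh7b 54 and Myh6 4.

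Genes outside the myosin call also differed between Myh2-led and Myh4-led nuclei. With 3 UMIs as the floor, the floors were 7.69 CPM in Myh2-led and 2.22 CPM in Myh4-led nuclei, so a gene at or under the floor in both passes 2-fold by depth alone. Calls were therefore also counted only where the higher class had over 3 UMIs, a condition added after the data were seen. Of 10 measured slow programme genes, 7 were then at least 2-fold higher in Myh2-led nuclei, where 11.6% of 9703 genes were: Atp2a2, Casq2, Myl2, Myom3, Myoz2, Tnnt1 and Tpm3. Without the condition all 10 passed (13.6% of genes), and 2 of those were at or under 3 UMIs in both classes. Myl2 rested on 5 UMIs of a single nucleus. Within pieces 1 to 4 the same count was 0, 6, 6 and 6 of 10, and in piece 1, with 6 Myh2-led nuclei, 8 of the 10 genes had at most 3 UMIs in both classes.

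Of 9 fast programme genes, 5 were at least 2-fold higher in Myh4-led than in Myh2-led nuclei, where 6.58% of genes were. Their median log2 ratio was 1.62, and 8, 5, 8 and 5 of 9 passed within pieces 1 to 4. Between Myh1-led and Myh2-led nuclei, 4 of 9 fast genes were higher in the first (4.92% of all genes) and 6 of 10 slow genes in the second (15.2%).

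On the fast side, Mybpc2, the fast myosin binding protein, gave 668 CPM (625 to 713) in Myh4-led, 139 CPM (113 to 169) in Myh1-led and 7.69 CPM (1.59 to 22.5) in Myh2-led nuclei. The intervals of the 3 classes did not overlap. Actn3, an actinin of the fastest fibres, gave 600.3, 84.5 and 10.3 CPM in the same order. Pvalb, which soaks up calcium between twitches, gave 2052, 602 and 71.8 CPM. In each of the 4 pieces these 3 genes kept the order Myh4-led, Myh1-led, Myh2-led. Mybphl differed from them: it stood at 224 CPM (199 to 251) in Myh4-led and 203 CPM (172 to 238) in Myh1-led nuclei, with overlapping intervals, and at 7.69 CPM in Myh2-led nuclei.

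On the slow side, Tnnt1, slow troponin T, gave 3.70 CPM (1.20 to 8.63) in Myh4-led, 1.36 CPM (0.0345 to 7.59) in Myh1-led and 210 CPM (167 to 261) in Myh2-led nuclei. Myl6b, a light chain, gave 1.48, 1.36 and 177 CPM, and Myoz2, a Z-disc protein of slow muscle, 3.70, 20.4 and 192 CPM. Tpm3, slow tropomyosin, gave 68.0, 27.3 and 572 CPM. Within piece 1, where 6 nuclei were Myh2-led, Tnnt1 and Tpm3 had 0 UMIs in those nuclei, while Myl6b had 7 and Myoz2 had 3. Lmx1a, a LIM homeobox transcription factor, gave 2.22, 23.2 and 215 CPM (172 to 267), with UMIs in 20 of the 43 Myh2-led nuclei.

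Myh15 gave 1339 CPM (1226 to 1459) in Myh2-led nuclei from 522 UMIs in 18 nuclei, and had 1 UMI each in Myh4-led and Myh1-led nuclei. A single nucleus held 20.1% of those 522 UMIs. In pieces 1 to 4 its level in Myh2-led nuclei was 602, 1507, 1661 and 1221 CPM. All 4 values lay above the level in Myh4-led nuclei, at most 1.98 CPM in any piece.

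**Figure D2:**
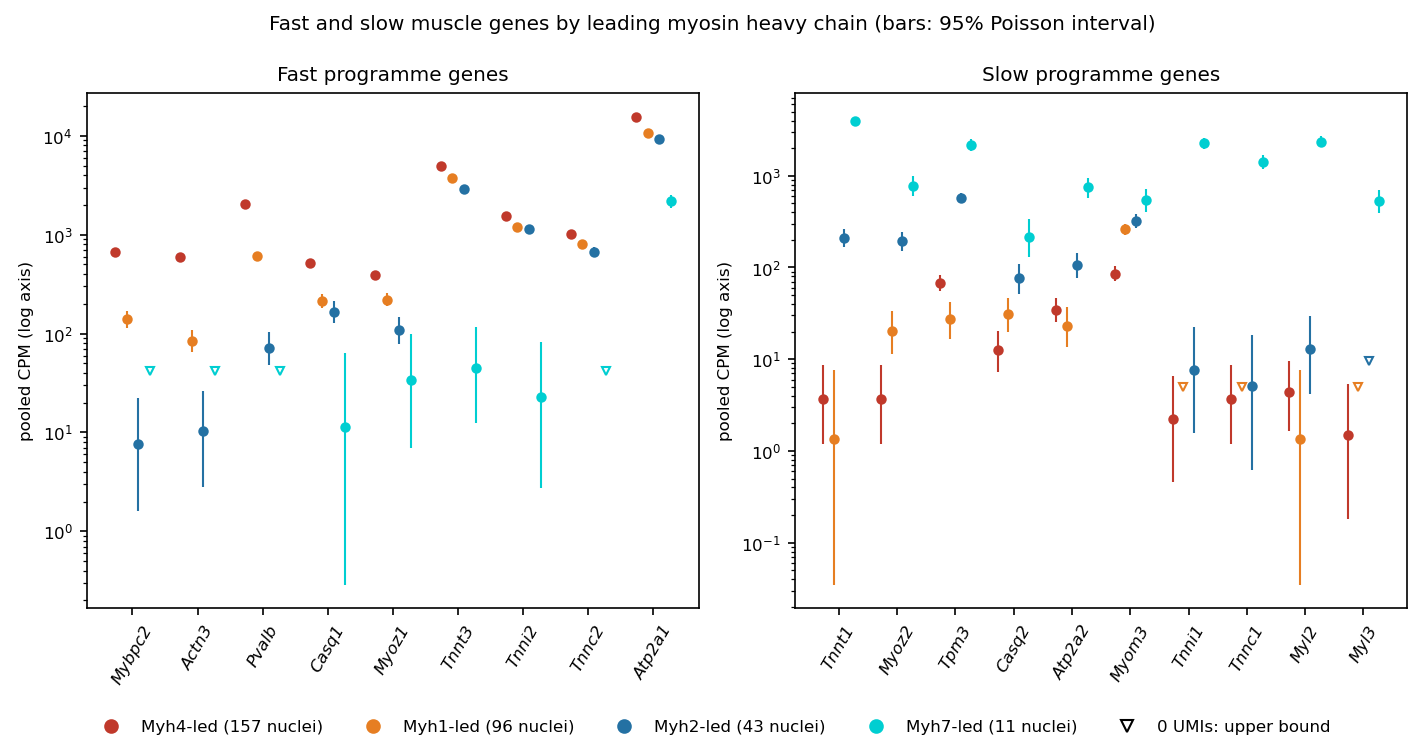
Pooled CPM (log axis) of 9 fast and 10 slow programme genes in Myh4-led, Myh1-led, Myh2-led and Myh7-led nuclei, with Poisson 95% intervals; open triangles give the upper bound for 0 UMIs. Atp2a1, Tnni2 and Tnnc2 are lower in the 11 Myh7-led nuclei than in the other classes, and Tnnt1, Tnni1, Tnnc1, Myl2 and Myl3 are higher.

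The 11 Myh7-led nuclei, under the minimum of 30 set for a comparison, carried a whole slow set. Tnnt1 gave 3945 CPM (3542 to 4382), Tnni1, slow troponin I, 2250 CPM and Myl2, the slow light chain, 2351 CPM. Pln, which holds back the slow calcium pump, gave 441 CPM, and that pump, Atp2a2, 746 CPM. Pvalb, Mybpc2, Actn3, Actc1 and fast troponin C, Tnnc2, had 0 UMIs among 88456, where 3 UMIs would be 33.9 CPM. Myh2-led nuclei, by contrast, held Tnni1 at 7.69 CPM and Myl2 at 12.8 CPM, so their slow genes were a part of the set. Of the 11 nuclei, 7 lay in piece 3.

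The 10 Myh3-led nuclei, 8 of them in piece 1, stood apart again. Myh15 gave 5660 CPM (5191 to 6160) with UMIs in all 10, and Lmx1a 697 CPM. They held fast Tnni2 at 1088 CPM, close to the 1149 CPM of Myh2-led nuclei, with Tnni1 at 52.8 CPM and 0 UMIs of Myl2.

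Metabolic genes differed between the classes too. Of 19 glycolysis and glycogen genes, 5 were at least 2-fold higher in Myh4-led than in Myh2-led nuclei (6.58% of all genes) and 1 was lower (11.6%). Within pieces 1 to 4, 9, 6, 8 and 3 were higher and 0, 0, 2 and 2 lower, so that piece 4 showed little difference, with a median log2 ratio of 0.09. The glycogen and sugar genes Phkg1 (199 and 92.3 CPM), Phka1 (225 and 105 CPM) and Pgam2 (489 and 233 CPM) were among the 5, as was Ckm, with 4018 CPM in Myh4-led, 2640 CPM in Myh1-led and 1539 CPM in Myh2-led nuclei. The lower gene was Ldhb, the lactate dehydrogenase of oxidative tissue, with 61.4 and 167 CPM.

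Of 16 oxidative genes, 6 were at least 2-fold higher in Myh2-led than in Myh4-led nuclei (11.6% of all genes) and none was lower by that much. Within pieces 1 to 4 the higher genes numbered 2, 5, 3 and 2, and 1 gene was lower in each of pieces 1 and 4. Mb gave 770 CPM (724 to 818) in Myh4-led, 1702 CPM (1609 to 1799) in Myh1-led and 2475 CPM (2321 to 2636) in Myh2-led nuclei. The order of the last 2 was not the same in every piece: Mb stood at 1708 CPM in Myh1-led and 1287 CPM in Myh2-led nuclei of piece 1 and at 1915 and 1097 CPM in piece 3, but at 1353 and 1981 CPM in piece 2 and 1647 and 3861 CPM in piece 4. Esrrg, a nuclear receptor of oxidative fibres, gave 183, 624 and 567 CPM. Between Myh4-led and Myh1-led nuclei, 4 of 16 oxidative genes were at least 2-fold higher in Myh1-led nuclei, where 6.38% of all genes were. Median mitochondrial shares were 1.91, 3.03 and 6.34% in the same 3 classes, and their part in these levels was not tested.

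Some large differences between classes came from single nuclei. Muc4, Gm9573, Gsto1, Asprv1, Krt6b, Emp1 and Ifit1bl1 were among the 8 highest ratios of Myh4-led over Myh1-led nuclei. The surface epithelium-like nucleus held 93.3 to 99.4% of their UMIs in Myh4-led nuclei. The eighth gene, Ano4, had 53.8% of its UMIs there in 1 nucleus. Cntn5, Dpp10 and Gm44196, higher in Myh2-led than Myh1-led nuclei, had UMIs in only 3 or 4 of the Myh2-led nuclei.

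At the neuromuscular junction a few nuclei under the nerve ending switch on genes that the rest of the fibre keeps silent. The acetylcholine receptor there is built from Chrna1, Chrnb1, Chrnd and, in the adult, Chrne in place of the fetal Chrng. The kinase Musk, with Lrp4 and Dok7, gathers the receptor, Rapsn anchors it, and Ache, tethered by Colq, breaks the transmitter down. Etv5 is a transcription factor of these nuclei.

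These genes were gathered in a few muscle nuclei. A fixed rule, at least 3 UMIs over at least 2 of 9 junction genes, found 49 nuclei (10.8%, 8.13 to 14.1%). Their median depth was 16091 UMIs, and thinned to 500 UMIs only 1.38% of nuclei met the rule. A narrower view, set after the values were seen, took nuclei with at least 6 UMIs of Chrne and Chrnd. It left 8 nuclei, with 3581 to 39760 UMIs each.

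The Chrne counts of these 8 were 17, 13, 16, 6, 9, 9, 1 and 3 UMIs, and those of Chrnd 16, 12, 7, 7, 3, 1, 5 and 3. Below them, 6 nuclei had 2 to 4 UMIs of both genes together. The 8 held 4.35% of the UMIs of all muscle nuclei, but 77.1% of those of Chrne and 91.5% of those of Chrnd, the genes by which they were chosen. Genes that the choice did not use were gathered there too: 77.7% of Etv5, 68.3% of Ache, 66.3% of Colq, 66.7% of Ufsp1, 52.7% of Musk and 50.3% of Chrna1 UMIs. Ache stood at 1431 CPM in the 8 nuclei and 30.2 CPM in the other muscle nuclei, and Etv5 at 821 and 10.7 CPM.

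Other members of the junction list had smaller shares in the 8 nuclei. Lrp4 had 89 of its 320 UMIs there (538 CPM in the 8 and 63.5 CPM in the other muscle nuclei), Chrnb1 23 of 97 (139 and 20.3 CPM) and Rapsn 7 of 74 (42.3 and 18.4 CPM). Dok7 alone of the 12 measured genes was lower, with 2 of its 139 UMIs there (12.1 and 37.6 CPM). Chrng, the fetal subunit, had 0 UMIs in all muscle nuclei, which allows up to 0.97 CPM by its Poisson bound. Utrn, a dystrophin relative found at the junction, stood at 821 CPM in the 8 and 159 CPM elsewhere.

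**Figure D3:**
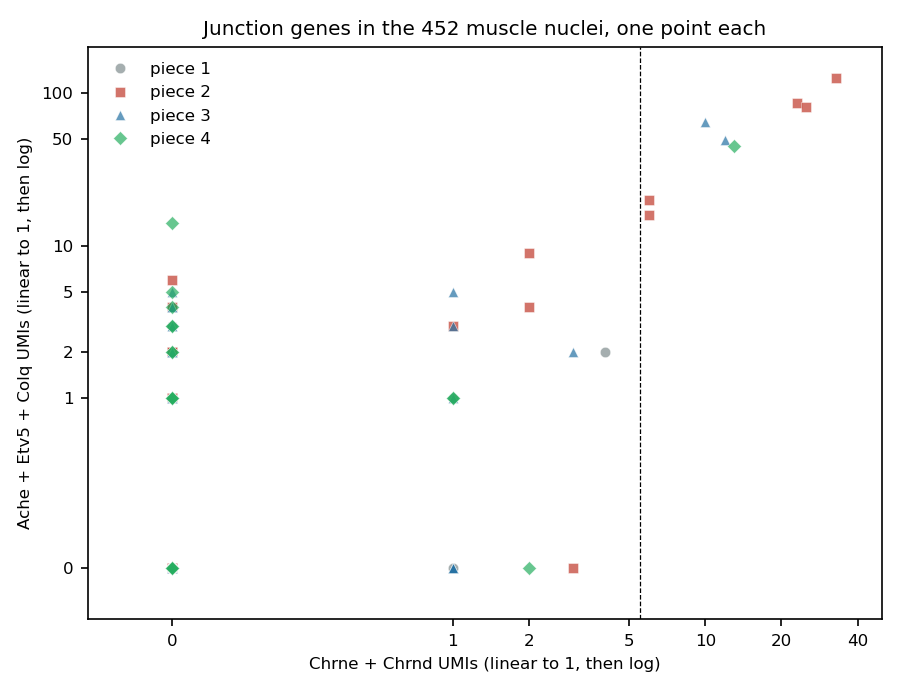
UMIs of Chrne and Chrnd (x) against UMIs of Ache, Etv5 and Colq (y) in each of the 452 muscle nuclei, both axes linear to 1 and log above, coloured by piece. The 8 nuclei right of the dashed line all have at least 16 UMIs on the y axis.

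By place, 5 of the 8 lay in piece 2, 2 in piece 3, 1 in piece 4 and 0 in piece 1. Of the 5 in piece 2, 4 lay within 360 units of one another, among 11 muscle nuclei within 400 units of their centre, so they may not be independent. By myosin, 3 were Myh4-led and 5 mixed. This moved the junction list between classes: 8 of its 12 genes were at least 2-fold higher in Myh4-led than in Myh1-led nuclei (all genes, 9.98%), but 1 of 12 without these 8 nuclei.

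Promoter stretches of 3 junction genes are shown as examples, all of which held at least 1 of the motifs named next. They are RefSeq sequences of GRCm38.p6, 5′ to 3′ on the gene's strand, with capitals for CAGCTG, a form of the E-box bound by myogenic factors, and for CCGGAA, the core of the N-box named from junction genes.
Chrne: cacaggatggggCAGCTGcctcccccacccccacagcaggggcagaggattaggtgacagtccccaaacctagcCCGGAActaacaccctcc
Chrna1: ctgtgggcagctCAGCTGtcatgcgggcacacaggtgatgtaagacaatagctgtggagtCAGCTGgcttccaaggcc
Musk: gtgagttctcccCAGCTGgccacgtccatc
They lie at chr11:70619253-70619344 on the minus strand, chr2:73580365-73580442 on the minus strand and chr4:58285882-58285911 on the plus strand. Positions count back from the start of the gene. In Chrne the E-box began 138 bases and the N-box 76 bases before the start of the gene. Of 13 junction genes, 9 had a promoter in the table used, with 300 bases each. Only the 250 bases before the start were searched. There 5 of the 9 genes held CAGCTG and 1 held CCGGAA, on either strand. A gene was counted with a match in any of its promoters, 11 in all for the 9 genes. Chrng, with 0 UMIs in muscle nuclei, was among those with CAGCTG. The background is counted by promoter, so the 2 shares are not on the same scale. Of 32851 promoters searched in the same way, 4271 (13%) held CAGCTG and 3952 (12%) CCGGAA. Ache and Ufsp1, also gathered in the 8 nuclei high in Chrne and Chrnd, held neither motif, and nor did Chrnb1 and Dok7. The motifs do not overlap each other, and a match is not evidence of binding.

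Of the genes known to respond to lost innervation or wasting, the ligases Fbxo32 and Trim63 stood at 155 and 48.6 CPM. Mstn, the brake on muscle growth, had 74 UMIs, 59 of them in Myh4-led nuclei. Myog had 39 UMIs and Chrng 0. Runx1, at 14.5 CPM in muscle nuclei, stood at 1624 CPM in microglia-like nuclei.

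Markers of satellite cells, the stem cells of muscle, were present at low levels inside the muscle nuclei. Pax7, their defining transcription factor, had 88 UMIs in 42 muscle nuclei, 22 of which had at least 2 UMIs, with a median depth of 10257 UMIs. Calcr had 11 UMIs, Chodl 13 and Myf5 4. A further 7 kept nuclei outside the rule had at least 2 Pax7 UMIs: 6 had no UMI of the rule genes, and 5 clustered with fibroblasts. All 5 had a UMI of Calcr, Chodl or Megf10, 4 lay in piece 4, and their depth was 817 to 1716 UMIs. The rule thus left out nuclei with this marker and without sarcomere RNA.

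Muscle nuclei formed patches outside the ring of retinal pigment epithelium, the RPE, which lines the eye wall. Of the 452, 449 lay outside a circle fitted to the RPE-like nuclei of their piece. Their median distance to the nearest RPE-like nucleus was 803 units of the deposited positions (quartiles 499 and 1161), and 687, 724, 857 and 824 units in pieces 1 to 4. How long a unit is was not stated in the labels.

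**Figure D4:**
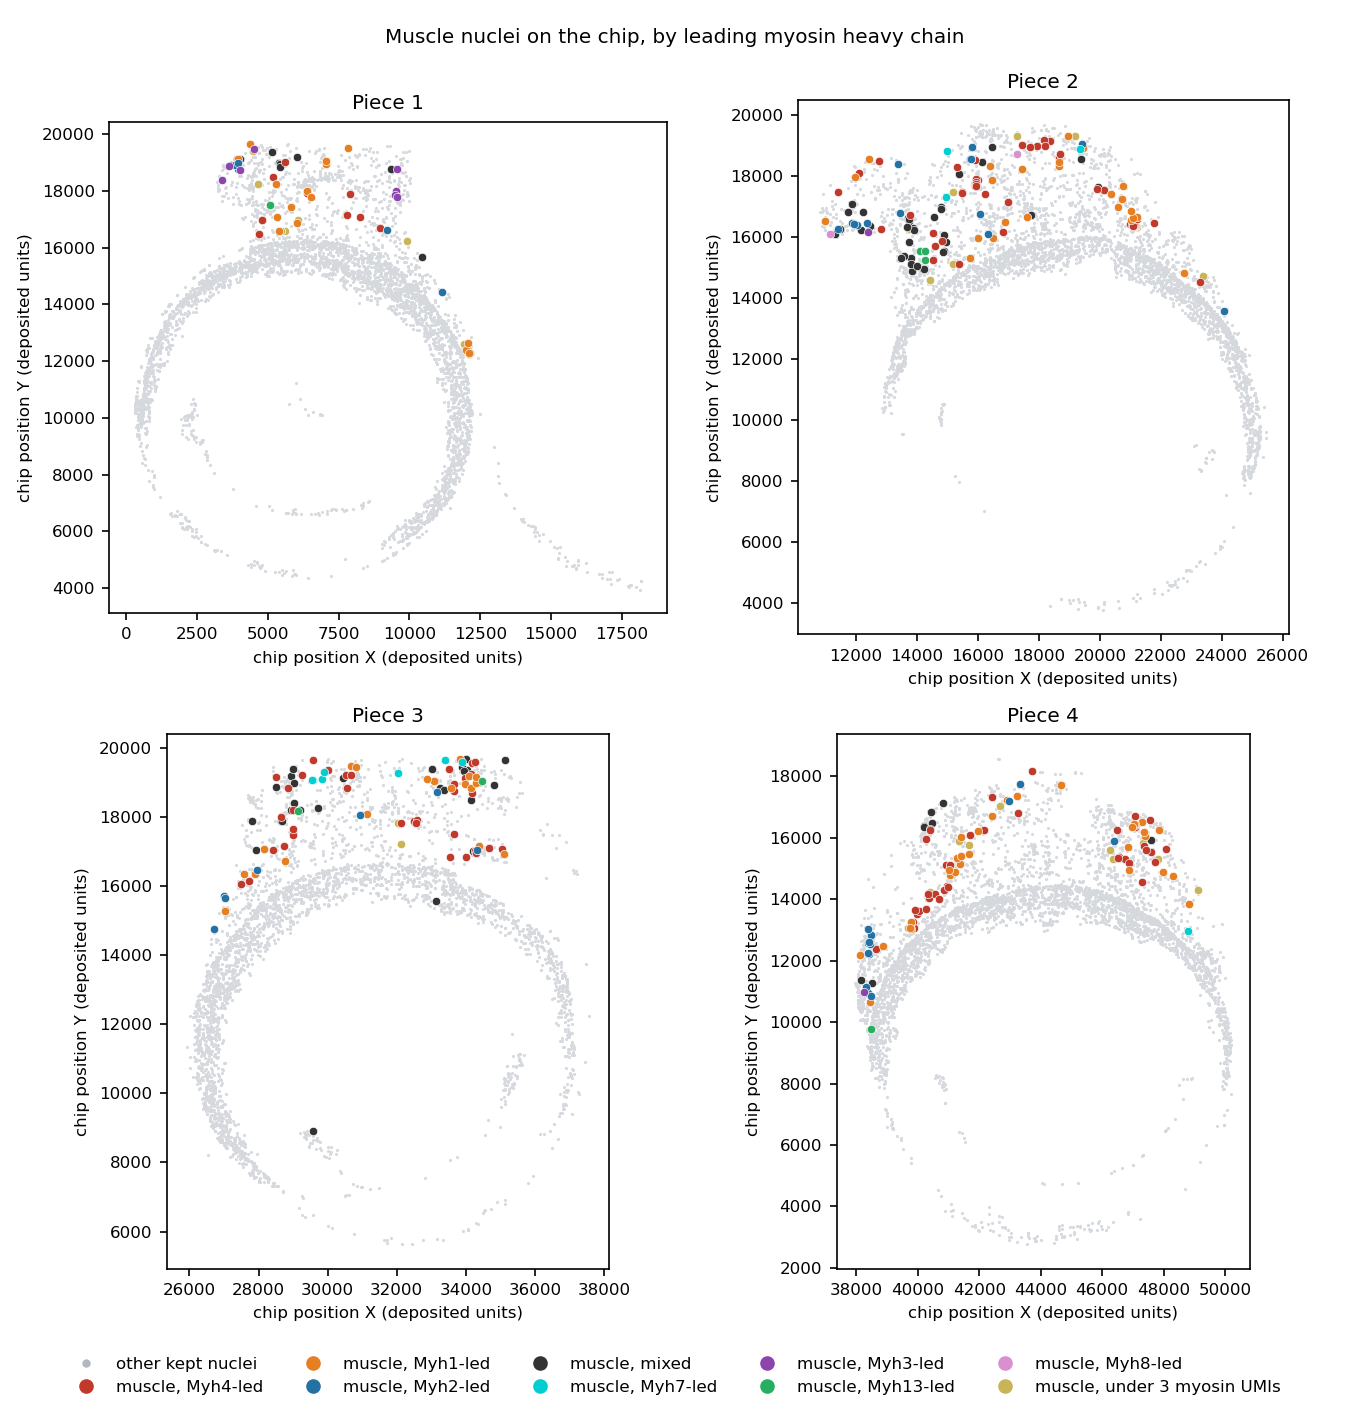
Chip positions (deposited units) of kept nuclei in the 4 pieces, with muscle nuclei coloured by leading myosin heavy chain. Muscle nuclei lie outside the ring in patches, and 8 of the 10 Myh3-led nuclei lie in piece 1.

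The number of muscle nuclei differed between the pieces. Pieces 1 to 4 held 65, 170, 106 and 111, or 1.48% (1.14 to 1.88%), 4.05% (3.48 to 4.69%), 2.87% (2.35 to 3.46%) and 2.43% (upper bound 2.92%) of their kept nuclei. The interval of piece 2 lay above those of pieces 1, 3 and 4, though only narrowly above that of piece 3. These intervals take nuclei as independent, which neighbouring muscle nuclei are not. Linking muscle nuclei within 500 units gave 24 groups, 6 of them with at least 20 nuclei, and left 95 nuclei ungrouped.

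The nearest nuclei of a muscle nucleus were often muscle. Among its 20 nearest kept nuclei, muscle made up 21%, which was 7.83 times its share of all kept nuclei, and 5.26 to 11.1 times within single pieces. Fibroblast-like nuclei stood at 2.31 times their share, endothelial-like at 2.15 and myelinating glia-like at 2.16. All 3 were above 1 in every piece, at 1.31 to 3.92. RPE-like nuclei stood at 0.229 and ganglion cell-like nuclei at 0.117, while rod-like nuclei stood at 0.877 and ranged from 0.726 to 1.31 over the pieces. Rod-like nuclei were still the most frequent named class among these neighbours, at 29.8%, against 33.9% of all kept nuclei.

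Nuclei of the same leading myosin lay together. Among the 5 nearest muscle nuclei of a Myh4-led nucleus 53.4% were Myh4-led, against 34.7% of all muscle nuclei. For Myh1-led nuclei the shares were 33.8 and 21.2%, for Myh2-led 37.7 and 9.51%, and for mixed 46.0 and 19.0%. In piece 3 the Myh4-led shares were 34.6 and 34.9%, so there they did not lie together. At close range, 123 had another within 50 units, and where both had a call, 88 of 103 (85.4%) had the same one. No background share was computed for this count, and such close nuclei can belong to the same fibre.

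The largest groups differed in make-up. The largest, in piece 2, held 47 nuclei, of which 31 were Myh4-led, 8 Myh1-led and 0 Myh2-led. Another group of piece 2 held 34 nuclei, of which 22 were mixed and 4 Myh13-led, or 4 of the 8 Myh13-led nuclei in all. In piece 4 a group of 12 held 8 Myh2-led nuclei. Myh2-led nuclei did not lie at 1 distance in every piece. Their median distance to the RPE was 949 and 1455 units in pieces 1 and 2, above the 687 and 724 units of all muscle nuclei there. It was 596 and 625 units in pieces 3 and 4, below the 857 and 824 units of all.

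Muscle nuclei of the pieces differed in their myosin genes. Of 6232 genes with at least 50 UMIs in muscle nuclei, 40.2% were at least 2-fold apart between the highest and lowest piece, and so were 10 of 17 thick filament and 9 of 12 slow programme genes. The median ratio was 1.84 over all genes, 3.19 for the thick filament and 3.23 for the slow programme. With 1.38 as its median ratio and 1 of 19 genes past the fold, the glycolysis and glycogen list varied less.

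Myh3 stood at 2385 CPM (2254 to 2521) in piece 1, 461 CPM in piece 2, 53.7 CPM (41.8 to 67.9) in piece 3 and 924 CPM in piece 4. The level of piece 1 rested on few nuclei: single nuclei held 343, 244 and 157 of its 1242 Myh3 UMIs. The interval does not cover this spread between nuclei. Myh15 had the same order, with 701 CPM in piece 1, 412 in piece 2, 45.1 in piece 3 and 602 in piece 4. Myh2 stood at 1361, 1910, 387 and 3867 CPM. Myh13 ran otherwise, with 551, 1918, 1813 and 344 CPM, so that pieces 2 and 3 were high where piece 4 was low. Myh4 and Myh1 varied by less than 2-fold, from 4222 to 7232 CPM and from 3084 to 5452 CPM.

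**Figure D5:**
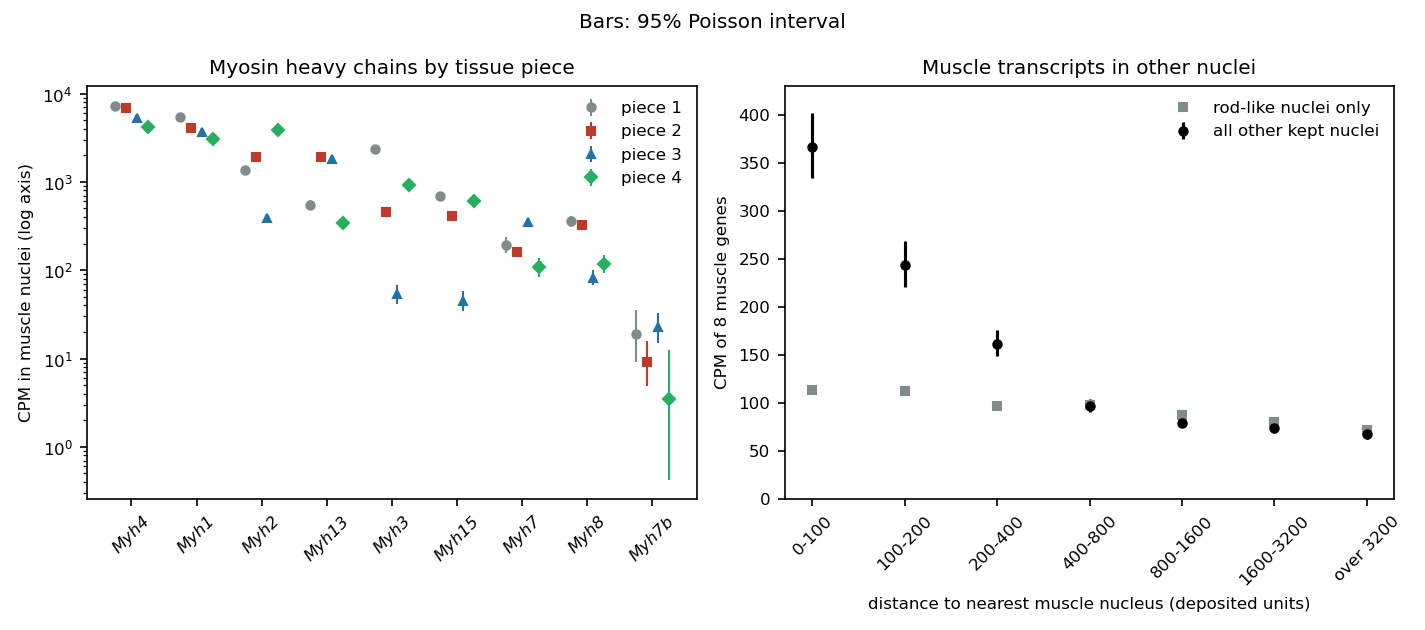
Left, CPM (log axis) of 9 myosin heavy chain genes in the muscle nuclei of pieces 1 to 4. Right, CPM of 8 muscle genes in other kept nuclei by distance to the nearest muscle nucleus, for all of them and for rod-like nuclei alone; bars are Poisson 95% intervals. Myh3 and Myh15 are lowest in piece 3, and the 8 genes drop from 367 to 67.9 CPM with distance.

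Some oxidative genes were highest in piece 4, and the 3 given here were picked after their values were seen. Pdk4, the kinase that turns fibres from sugar to fat, measured 44.2, 88.5, 17.9 and 386 CPM from piece 1 to piece 4, and Ucp3, a mitochondrial carrier gene raised with fat use, at 36.5, 33.7, 15.6 and 174 CPM. Fabp3, a fatty acid carrier, stood at 119, 262, 94.9 and 395 CPM. The oxidative list as a whole did not stand out: 4 of its 16 genes were at least 2-fold apart between pieces, against 40.2% of all genes, with a median ratio of 1.77 against 1.84. Xist, with 8, 22, 3 and 167 UMIs in muscle nuclei, was high in the same piece. Piece 4 differed in Xist and in these genes at once, and the source of a piece and its place cannot be told apart. Median mitochondrial shares of muscle nuclei were 4.86, 3.82, 4.36 and 1.13% in pieces 1 to 4, and median depths 3909, 2981, 8540 and 2164 UMIs, whose part was not tested.

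Other genes with large ratios rested on few nuclei. Of the 8 largest, Muc4, Gsto1, Krt6b and Gm9573 were high in piece 3, where the surface epithelium-like nucleus lay with 91.0 to 98.6% of their UMIs. Hs6st3 had 67.2% of its UMIs in a single nucleus. 9330111N05Rik, with 67 of 100 UMIs in piece 1, and Tmem132d, with 147 UMIs in 27 nuclei, were the rest beside Xist.

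Muscle RNA was also found in nuclei that were not muscle. Ttn, Atp2a1, Acta1, Myh4, Myh1, Ckm, Neb and Tnnt3 together gave 97662 CPM in muscle nuclei. In other kept nuclei outside the muscle cluster they gave 367 CPM (334 to 402) within 100 units of a muscle nucleus, 162 CPM between 200 and 400 units and 67.9 CPM (62.1 to 74.0) beyond 3200 units. Rod-like nuclei alone gave 114 CPM within 100 units and 71.5 CPM beyond 3200 units. By class the level was highest in endothelial-like (427 CPM) and myelinating glia-like nuclei (403 CPM), at 2.15 and 2.16 times their share among the neighbours of muscle nuclei. Fibroblast-like nuclei, at 2.31 times their share there, gave 224 CPM. The source of this RNA was not tested, and muscle gene levels at or below these in other classes are not read as their own expression.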

How the data were processed

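RNA of nuclei from 1 section was measured in 1 expression library, with a second library for positions. The authors deposited raw UMI counts per gene and barcode; values were whole numbers. Positions were deposited as chip coordinates in an unstated unit. Per the submitters' processing notes, fastp, STAR, Seurat 4.1.1 and mm10 were used; their settings and roles were not given in the sources read.

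From these counts, CPM was pooled over nuclei, with exact Poisson intervals (95%), and shares have Clopper-Pearson intervals. Both cover counting error only. A gene was called at 2-fold or more, with 3 UMIs as the floor in each class; between myosin classes, calls with over 3 UMIs in the higher class were also counted. Nuclei were clustered with Scanpy 1.11.5 (2000 variable genes, 30 components, 15 neighbours, resolution 1) and named from marker lists. Pieces were found from positions alone with scikit-learn 1.9.0. No doublet caller was run; nuclei with 2% or more of UMIs from markers of another class were counted instead. The 2-fold call between Myh4-led and Myh2-led nuclei was tested on simulated pooled counts, which held no spread between nuclei. The clustering, the myosin call, the junction rule and the measures of place were not tested in this way.

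Muscle nuclei, gene lists and tests were chosen with earlier results of these data known. Genes were named as follows: the markers, all myosin heavy chains, up to 6 genes of each list by UMIs, defining genes at 0, 15 genes outside the lists by ratio to the next class, and 8 for each pair of myosin classes and for the pieces. Other genes named were picked after their values were seen. Gene lists held 17 themes, and all 318 symbols were among the features. Alternatives changed the rule, the fold, the minimum UMIs, the myosin call, the depth and the neighbours. Some genes of the lists are not reported here.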

Additional observations from a re-analysis of the deposited data

How the results depend on the processing

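Of 69 alternatives, 56 left the value within its interval, its range over pieces or 1.5 times its count, and 13 moved it. Of the 69, 50 were planned, 41 of these among the 56, and 19 were chosen after seeing the data. Without the mitochondrial limit the share of muscle nuclei was 3.13% and Myh13 stood at 1990 CPM. Myh13 stood at 1163 CPM as a mean over nuclei, at 1191 CPM thinned to 500 UMIs, at 1497 CPM in members of the muscle cluster and at 2595 CPM with mitochondrial genes, Gm42418 and the rule genes taken out of the totals. With a limit of 80% the Myh4-led share was 32.9%. Junction nuclei made up 5.97% with at least 5 UMIs of 3 genes and 1.38% thinned to 500 UMIs. Genes at least 2-fold apart between Myh4-led and Myh2-led nuclei numbered 1958; at 3-fold they numbered 680 with 50 UMIs as the minimum 1133 and with over 3 UMIs asked of the higher class 1766. Between pieces 2505 genes were at least 2-fold apart and 776 at 3-fold. Slow programme genes higher in Myh2-led nuclei numbered 10 of 10, 6 within piece 4, and 7 with over 3 UMIs asked of the higher class. Without that condition counts within pieces include genes that pass by unequal floors alone. The counts of pieces 1 to 3 without it, at 9, 8 and 10, are among the 56. With the condition they were 0, 6 and 6. The cause of these shifts was not tested, except that a higher fold or minimum and thinning leave fewer genes or UMIs by construction. With 1 expression library, no interval holds the spread between animals, and the classes led by Myh7, Myh3, Myh13 and Myh8 rest on 2 to 11 nuclei. No paired analysis was possible because the labels give no groups and no replicates.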
